A study of Mus musculus with 6 samples.

Results

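The genes described here act in or around the renin-secreting cells of the kidney: the connexins Gja5, Gja4 and Gja1, the G protein regulator Rgs5, the nitric oxide and cGMP genes Nos1 and Gucy1a1, the adrenergic receptor gene Adrb1, the potassium channel subunits Kcnj8 and Abcc9, and the transcription factor Foxd1. They were taken as every bead-array probe whose platform gene symbol is 1 of these 10 names, whatever its signal. That gave 20 of 45281 probes for 9 of the 10 genes, out of 19057 genes with a named probe, since Adrb1 had no named probe and was not analysed here. Kidney cortex of captopril mice (3 samples) was set against that of control mice (3 samples), with 1 Illumina MouseWG-6 v2 array per sample. All samples came from C57BL6 males of 12 weeks. Captopril blocks angiotensin-converting enzyme and was given from the age of 11 weeks over 7 days, as 10 mg/kg/day dissolved in what the animals drank, and the labels call the other samples control without naming a vehicle. The labels do not say that each replicate is a separate mouse, so p-values measure only the spread between these samples, which may be technical. The question was which transcripts differ in the cortex once the enzyme is inhibited.

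Renin cells sit in the wall of the afferent arteriole at the glomerular pole, belong to the lineage of stromal progenitors that express Foxd1, and share many genes with smooth muscle cells and pericytes. The connexin encoded by Gja5 couples them to each other and to the endothelium, and its loss in mice displaces renin cells and raises renin secretion. Cyclic AMP, driven by beta1-adrenergic receptors, stimulates renin secretion, while nitric oxide from macula densa cells acts through soluble guanylate cyclase and cGMP. Blockade of angiotensin formation removes a brake on renin and is known to recruit more renin-expressing cells along the arteriole. Renin itself had no named probe, and its response was not analysed here.

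The region just before the annotated start of each connexin gene is shown because the connexins hold the lowest of the tested member differences, that of Gja5 probe ILMN_2691641. Beside it stand 2 family members whose captopril and control values overlapped, as did those of the other tested Gja5 probe. These are the 250 bases upstream of the start on the gene's strand, 5′ to 3′, from RefSeq for GRCm38.p6, at chr3:97032152-97032401 on the plus strand for Gja5, chr4:127314040-127314289 on the minus strand for Gja4 and chr10:56377050-56377299 on the plus strand for Gja1. Capitals mark TGACG on either strand, the half-site of the cyclic AMP response element.
Gja5: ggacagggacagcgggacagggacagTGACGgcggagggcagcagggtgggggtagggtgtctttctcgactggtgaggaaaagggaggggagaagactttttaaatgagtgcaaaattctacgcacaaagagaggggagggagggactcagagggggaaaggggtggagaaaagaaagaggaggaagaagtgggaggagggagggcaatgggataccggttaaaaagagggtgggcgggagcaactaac
Gja4: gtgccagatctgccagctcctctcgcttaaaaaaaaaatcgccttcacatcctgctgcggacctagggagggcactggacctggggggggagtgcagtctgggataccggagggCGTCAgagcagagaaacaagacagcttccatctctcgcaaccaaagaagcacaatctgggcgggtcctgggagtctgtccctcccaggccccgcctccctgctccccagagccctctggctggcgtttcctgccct
Gja1: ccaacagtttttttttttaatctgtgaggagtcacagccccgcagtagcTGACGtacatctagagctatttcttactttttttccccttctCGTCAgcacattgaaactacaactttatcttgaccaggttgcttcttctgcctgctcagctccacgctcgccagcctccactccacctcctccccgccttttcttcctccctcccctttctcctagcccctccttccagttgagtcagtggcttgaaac
Counted from the annotated start, the half-site lay at -224 in Gja5, at -136 in Gja4, and at -201 and -159 in Gja1. Of the 11 upstream windows of the 10 genes, 7 held it, those of Nos1, Adrb1, Kcnj8 and Foxd1 included, against 17.8% of 32851 windows of the same length. The full element TGACGTCA was in 0 of the 11 windows and in 1.55% of all windows, and the forkhead core GTAAACA in 0 of 11 and in 3.17%, both read on either strand. The CArG box of smooth muscle genes was likewise in 0 of 11 windows, against 1.47% of all. A match describes these letters only, and no measurement of binding was made.

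The arrays resembled each other closely, with correlations across tested probes of 0.984 to 0.987 between arrays, and 36.2% to 38.2% of probes per array were detected, meaning a detection p-value under 0.05. Markers of the labelled tissue were present: 8 of 8 proximal tubule genes, 5 of 5 named podocyte genes and 14 of 16 endothelial genes were bright enough to test. Levels below are log2 values after background correction with negative controls and quantile normalization (limma's neqc), and differences are captopril minus control on that scale. Levels of different probes cannot be set against each other. A probe was tested if it was detected on at least 3 of the 6 arrays, which kept 16500 probes. Of those, 3 unnamed probes passed a limma adjusted p of 0.05, all lower in captopril cortex.

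Of the 20 member probes, 11 were tested, for 7 genes, and 0 of these 11 passed the threshold, where 0.0182% of all tested probes did. Their limma adjusted p lay between 0.995 and 0.997. At an unadjusted limma p under 0.05 stood 2 of the 11, against 4.28% of all tested probes. They were a Gja5 probe with lower values in captopril cortex, as for 2.04% of all tested probes, and a Gucy1a1 probe with higher values, as for 2.25%. The Gucy1a1 probe met the detection filter through its captopril arrays, and its place among the 2 rests on that. The groups did not overlap in these 2 probes, against 8.69% of all tested probes, 4.63% with captopril lower and 4.06% with captopril higher. In value, 5 of the 11 were higher in captopril cortex and 6 lower, with a median difference of -0.01, as against -0.002 over all tested probes. The 11 differences ran from -0.60 to 0.46, and each came with a 95% interval shown in the plot of differences.

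**Figure D1:**
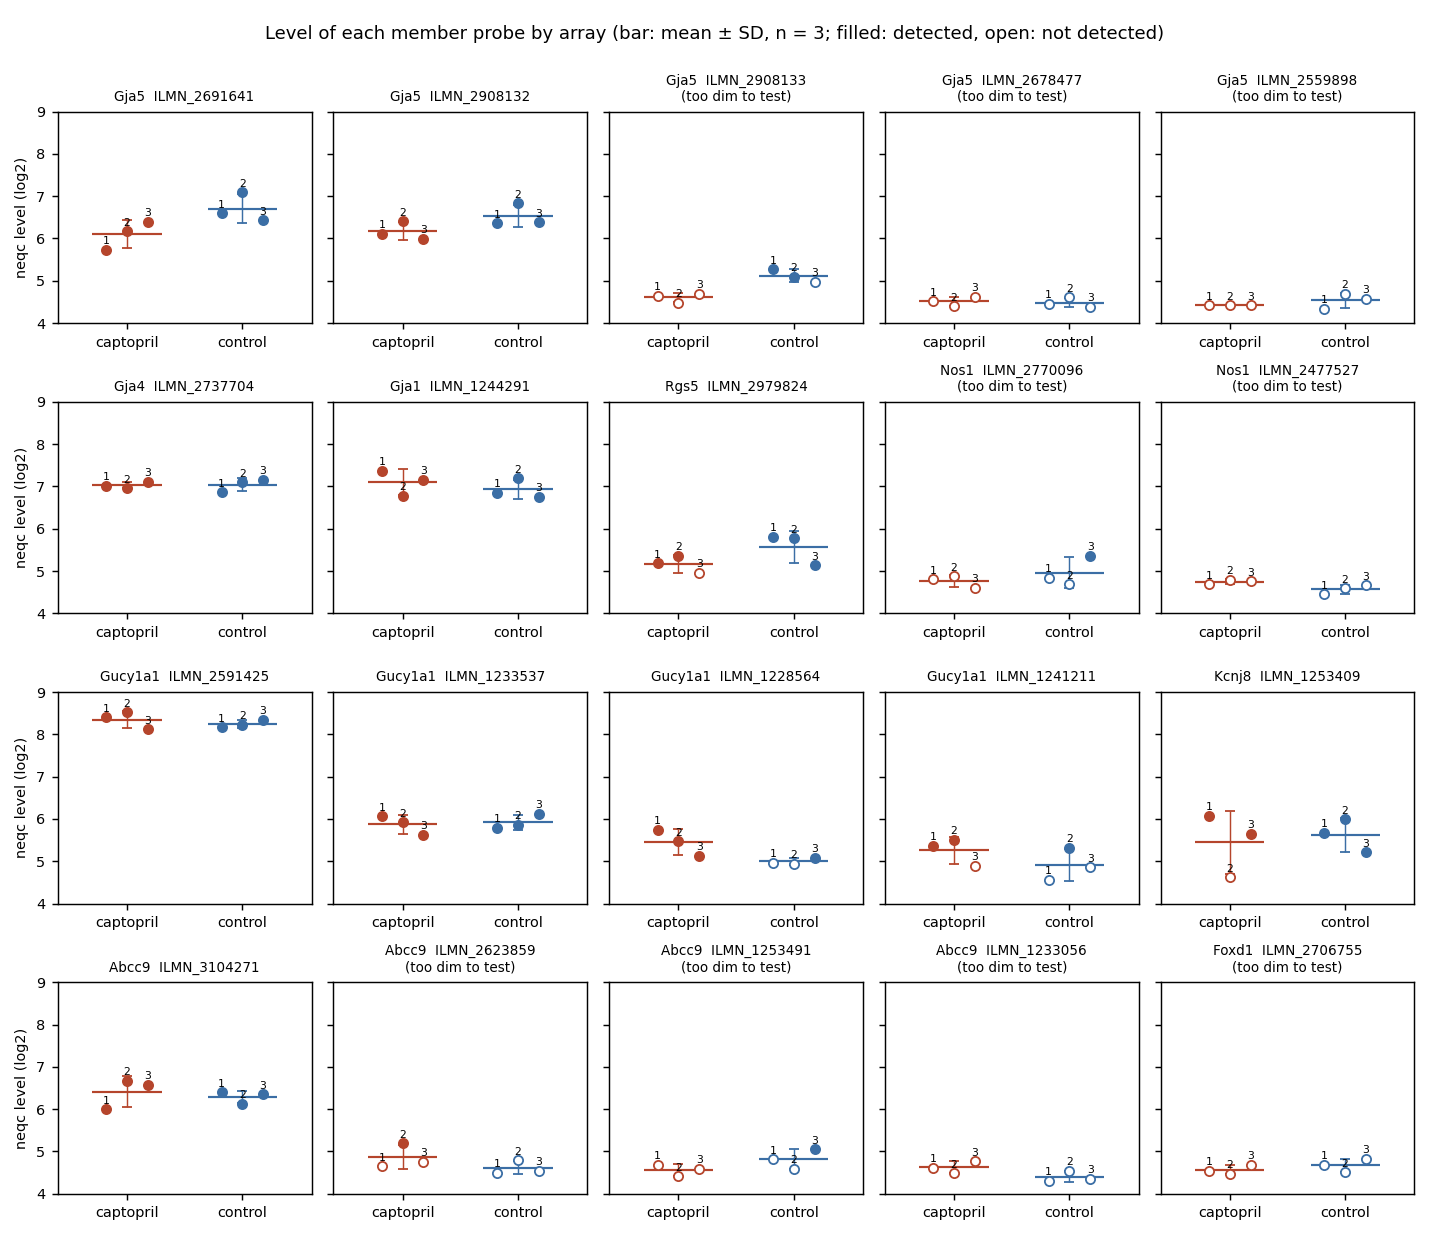
Level of each of the 20 member probes on the 6 arrays (y axis: neqc log2 level, to be read within a panel and not between panels), captopril left and control right, with the replicate number at each point, filled points for detected and open points for undetected signals, and bars for mean ± SD (n = 3). The 2 brighter Gja5 probes averaged 6.10 and 6.17 in captopril cortex, against 6.70 and 6.52 in control cortex, whereas Gja4 averaged 7.03 in captopril and 7.04 in control cortex.

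Gja5, the connexin that couples renin cells, had lower values in captopril cortex on both of its tested probes, and neither passed the threshold. Its probe ILMN_2691641 stood at 5.74, 6.17 and 6.40 in captopril samples 1, 2 and 3, against 6.59, 7.09 and 6.43 in control samples 1, 2 and 3. Every captopril value lay below every control value, but captopril sample 3 lay just under control sample 3, and with median scaling the groups overlapped. The means were 6.10 ± 0.34 in captopril and 6.70 ± 0.34 in control cortex (SD, n = 3 each). The difference was -0.60 (SE 0.23, 95% interval -1.12 to -0.08), with a limma adjusted p of 0.995 and an unadjusted p of 0.0285. In linear terms that is a 1.52-fold lower background-corrected signal.

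The second tested Gja5 probe, ILMN_2908132, had 6.11, 6.41 and 5.99 in captopril samples, against 6.36, 6.83 and 6.38 in control samples. Here captopril sample 2 lay above both control sample 1 and control sample 3, so the groups overlapped. The difference was -0.35 (SE 0.18, 95% interval -0.77 to 0.06). Another probe, ILMN_2908133, was too dim to test: it was detected on 0 of 3 captopril arrays and 2 of 3 control arrays. Its values of 4.64, 4.49 and 4.70 in captopril samples all lay below those of 5.27, 5.10 and 4.98 in control samples. With captopril signals not well above background, only a bound is given: its mean was at least 1.05-fold lower in captopril cortex. That bound leaves out sampling error, and 1 of the 3 control arrays did not detect the probe either. The remaining Gja5 probes, ILMN_2678477 and ILMN_2559898, were detected on 0 of 6 arrays, and their differences of 0.03 and -0.12 are differences of background. The annotation ties ILMN_2559898 to a cDNA clone and the other Gja5 probes to the RefSeq transcript of the gene, and whether any of the 5 share sequence is not known here. They are readings of the same RNA and not replicates of the samples.

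The size of the Gja5 difference depended on how background was handled. For ILMN_2691641 it was -0.26 if background was not corrected and -0.14 in the authors' processed values, which compress dim signals. The same settings gave -0.15 and -0.08 for ILMN_2908132. The direction of both probes was the same in all 17 alternatives run, the 2 covariate fits chosen after seeing the data included. Among these, the changes of filter, the trend and robust options and the replicate block cannot alter a difference of group means here. Their sign was fixed in advance and adds nothing. For ILMN_2691641, whose groups did not overlap, leaving out 1 sample or weighting arrays could not change the sign either. The other background corrections and the authors' values keep the rank order within arrays, and its groups stayed apart there too. For that probe only median scaling and the 2 covariate fits could have reversed the sign. Leaving out 1 sample gave -0.75 to -0.41 for ILMN_2691641, with -0.41 without control sample 2 and -0.42 without captopril sample 1. For ILMN_2908132 it gave -0.47 to -0.20, with -0.20 without control sample 2.

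Smooth muscle and pericyte markers had a Pearson r of 0.61 with ILMN_2691641 and 0.84 with ILMN_2908132 over the 6 arrays. Podocyte markers had 0.54 and 0.92. Other lists ran as strongly against Gja5, with -0.69 and -0.83 for stromal progenitor genes. Distal nephron and collecting duct markers had -0.32 and -0.85. In bulk cortex, fewer cells of a type and less RNA per cell cannot be told apart. Of 15 smooth muscle and pericyte genes, which encode contractile and mural proteins, 10 were tested, with a median difference of -0.15. Values were lower in captopril cortex for 6 of those 10 and higher for Mylk, Acta2, Des and Pdgfrb. The summed linear level of the 10 was 8637 to 9635 in captopril samples and 8365 to 9886 in control samples. The list's mean centred level was lowest in captopril sample 1, at -0.15, and highest in control sample 2, at 0.18, the samples that were lowest and highest for ILMN_2691641. Control sample 1, at 6.59 for that probe, had a centred level of -0.10 and the lowest summed level, 8365. All 5 tested podocyte genes had lower values in captopril cortex (median -0.19), with summed levels of 3167 to 3832 in captopril samples and 3513 to 3988 in control samples. With the smooth muscle and pericyte level as a covariate, chosen after seeing the data, the Gja5 differences in limma were -0.49 and -0.23. The adipocyte level as a covariate, likewise chosen after seeing the data, gave -0.50 and -0.24. Adipocyte markers had a Pearson r of -0.55 with ILMN_2691641 and -0.67 with ILMN_2908132 over the 6 arrays. The part of smooth muscle, pericyte, podocyte or adipocyte content in the difference was not tested.

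Gja4, which encodes a connexin of endothelial and renin cells, stood at 7.02, 6.96 and 7.12 in captopril samples and at 6.87, 7.10 and 7.16 in control samples. The groups overlapped almost completely. The means were 7.03 ± 0.08 in captopril and 7.04 ± 0.16 in control cortex (SD, n = 3 each), a difference of -0.01 that became 0.086 with median scaling. Its 95% interval of -0.32 to 0.30 was the narrowest among the 11 member probes, so a larger change than these bounds in either direction lies outside it.

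Gja1, which encodes the broadly expressed connexin of muscle, mesangial and many other cells, was 7.37, 6.78 and 7.16 in captopril samples, against 6.85, 7.19 and 6.76 in control samples. Captopril sample 1 was highest, yet captopril sample 2 lay below 2 of the control samples. The difference was 0.17 (SE 0.19, 95% interval -0.27 to 0.61). It was 0.038 without captopril sample 1, 0.083 without control sample 3, 0.33 without captopril sample 2 and 0.30 without control sample 2. With the adipocyte level as a covariate, chosen after seeing the data, it was 0.04. The 5 tested adipocyte genes of 10 listed, Pck1, Cidea, Adipoq, Ucp1 and Lep, all had higher values in captopril cortex. Pck1, at 6.75 in captopril and 6.68 in control cortex, differed by only 0.07. The centred level of the 5 genes was 0.78, -0.56 and 0.59 in captopril samples 1, 2 and 3, against -0.68, -0.35 and 0.22 in control samples. The summed linear level of these genes, Pck1 included, ran from 227 to 566 in captopril and from 209 to 361 in control samples. Plin1, Cidec, Fabp4 and Retn of that list were too dim to test.

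The other gap junction genes were mostly dim. Of 19 listed, 15 had a named probe and 3 were tested, with 0 past the threshold in either direction. The epithelial connexin gene Gjb2 differed by -0.11 on its brightest probe, though its other tested probes reached 0.19. Gjb1, another epithelial connexin gene, differed by -0.15 and Gjd2, known from neurons, by -0.04. The differences of the 3 probes that stand for these genes were all smaller than their SE, which ran up to 0.26. The connexin gene Gjc1, whose product is found in smooth muscle, was too dim to test.

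Rgs5, a GTPase-activating protein for Gq and Gi signals and a marker of pericytes and renin cells, was close to the detection limit. Its single probe stood at 5.19, 5.36 and 4.95 in captopril samples, the last of them undetected, against 5.81, 5.77 and 5.13 in control samples. Control samples 1 and 2 were above every captopril sample, while control sample 3 lay among the captopril values. The difference was -0.40 (SE 0.21, 95% interval -0.88 to 0.08), or -0.12 without background correction. As fits chosen after seeing the data, the adipocyte level as a covariate gave -0.20 and the smooth muscle and pericyte level -0.37. Leaving out 1 sample gave -0.62 to -0.28, with -0.62 without control sample 3 and -0.28 without control sample 1. In the authors' values the Rgs5 difference was -0.05.

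Among the other R4-type RGS genes, which share the short GTPase-activating structure of Rgs5, 4 of 8 were tested and 0 passed in limma, with 2 higher and 2 lower in value. At an unadjusted limma p under 0.05 stood 5 of the 110 genes tested over all 15 lists of related genes, or 4.55%, against 3.69% of 9718 tested named genes, so this share is near the background. Within the RGS list Rgs1, known mainly from lymphoid cells, was the only such gene. Rgs1 was 5.25, 5.70 and 5.28 in captopril samples, all detected, against 4.35, 4.32 and 4.64 in control samples, none detected. Rgs1 thus met the detection filter through its captopril arrays alone, and its place among the 5 genes rests on that. Its mean was at least 1.29-fold higher in captopril cortex, a bound that leaves out sampling error, and its limma adjusted p was 0.952. All 7 tested myeloid markers had higher values in captopril cortex on their brightest probes (9 of 10 named, Ptprc and Adgre1 too dim to test). Csf1r differed by only 0.03 there and by -0.21 on its other probe. Summed levels were 3980 to 5897 in captopril and 4077 to 4328 in control samples. The centred myeloid level was lowest in captopril sample 3, at -0.34, where Rgs1 was detected at 5.28. The part of myeloid content in the Rgs1 value was not tested.

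Gucy1a1, the alpha-1 subunit of the soluble guanylate cyclase that nitric oxide activates, was read by 4 tested probes that disagreed. The brightest, ILMN_2591425, stood at 8.40, 8.53 and 8.12 in captopril samples, against 8.16, 8.23 and 8.35 in control samples, and the groups overlapped. Its difference was 0.10 (SE 0.15, 95% interval -0.24 to 0.44), and it ran from 0.014 without captopril sample 2 to 0.22 without captopril sample 3. ILMN_1228564, by contrast, was 5.74, 5.48 and 5.13 in captopril samples and 4.97, 4.93 and 5.08 in control samples. Every captopril sample was above every control sample, but the probe was detected on 3 of 3 captopril arrays and on only 1 of 3 control arrays. It thus met the detection filter through its captopril arrays, where it was high, and its test rests on that selection. The difference was 0.46 (SE 0.17, 95% interval 0.06 to 0.85), with an unadjusted p of 0.0282 and an adjusted p of 0.995 in limma. Uncorrected for background it was 0.13, and the authors' values gave 0.06.

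The other Gucy1a1 probes were ILMN_1241211, detected on 2 captopril arrays and 1 control array, at 0.35 (SE 0.23), and ILMN_1233537, detected on all 6 arrays, at -0.05 (SE 0.16). ILMN_1241211 gave 0.17 without control sample 1 and 0.55 without control sample 2. ILMN_1233537 turned to 0.041 with median scaling. ILMN_1233537 is annotated to a cDNA clone, and the other Gucy1a1 probes to the gene's RefSeq transcript. When the 4 probes were averaged the gene differed by 0.21, and the brightest probe, with the highest signal over background, gave the 0.10 above. The named genes whose levels followed ILMN_1228564 most closely over the 6 arrays were Stbd1, Cxcl9 and Ramp2, with Pearson r of 0.985, 0.980 and 0.978. With 9717 genes searched over 6 arrays, 60 exceeded an r of 0.9, and no p is given for a ranking of this kind.

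Nos1, the neuronal nitric oxide synthase of macula densa cells, was too dim for a test. ILMN_2770096 was detected only in control sample 3, at 5.37, and was otherwise undetected, at 4.81, 4.87 and 4.61 in captopril samples and 4.83 and 4.69 in control samples 1 and 2. ILMN_2477527 was detected on 0 of 6 arrays. Of the other genes of the nitric oxide and cGMP pathway, 16 of 17 had a named probe, 8 were tested and 0 passed in either direction, with 4 higher and 4 lower in value and a median of 0.001. Nos3, the endothelial synthase, differed by -0.28 (SE 0.16) on its brightest probe while another of its probes gave 0.27, and Prkg1, the cGMP-dependent kinase, by -0.01 (SE 0.21). The beta subunit partner of Gucy1a1, Gucy1b1, was too dim to test.

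**Figure D2:**
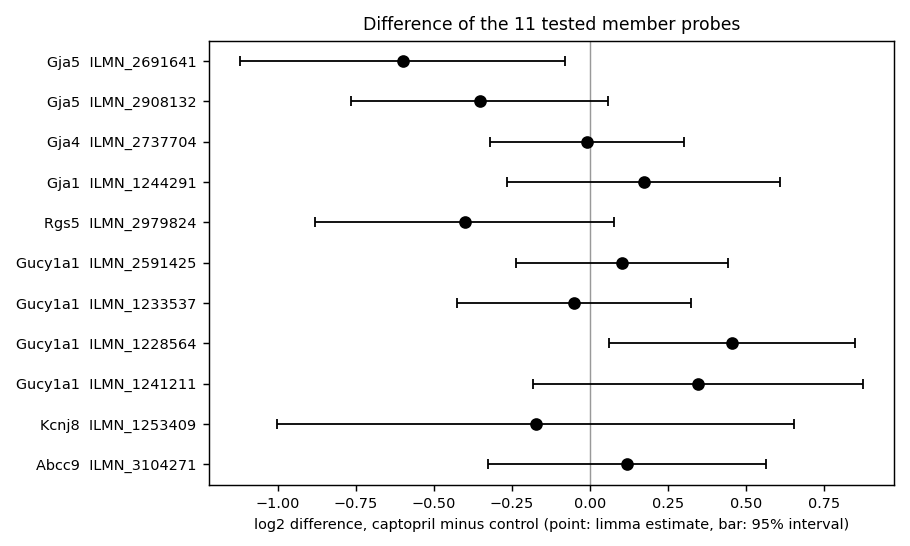
Difference between captopril and control cortex for the 11 tested member probes (x axis: log2 difference, captopril minus control; points: limma estimates; bars: 95% intervals). The intervals of ILMN_2691641 (Gja5, -1.12 to -0.08) and ILMN_1228564 (Gucy1a1, 0.06 to 0.85) leave out 0 before adjustment for the 16500 probes tested, and the other 9 include it. ILMN_1228564 met the detection filter through its captopril arrays.

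Kcnj8 and Abcc9 encode the pore Kir6.1 and the sulfonylurea receptor SUR2 of the vascular ATP-sensitive potassium channel, and the genes lie next to each other on mouse chromosome 6 with 0 annotated genes between them. Kcnj8 was 6.08, 4.63 and 5.65 in captopril samples, against 5.67, 5.998 and 5.21 in control samples. Its captopril values spanned the control values on both sides, and the lowest, in captopril sample 2, was not detected. The SD was 0.75 in captopril and 0.40 in control cortex, and the difference of -0.17 (SE 0.36, 95% interval -1.002 to 0.65) was the least precise of the 11. It was 0.24 without captopril sample 2 and 0.01 without control sample 2. With the smooth muscle and pericyte level or the adipocyte level as a covariate it was -0.34 or -0.48.

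Abcc9 was measured by 4 probes, of which only ILMN_3104271, annotated to the transcript NM_021042, was detected on all 6 arrays. It stood at 6.001, 6.67 and 6.57 in captopril samples and at 6.40, 6.13 and 6.35 in control samples. Captopril sample 1 was lowest and the other captopril samples highest of all 6. The difference was 0.12 (SE 0.19, 95% interval -0.33 to 0.57), and it was -0.0076 without captopril sample 2 and 0.33 without captopril sample 1. The adipocyte covariate gave 0.26. The 3 probes annotated to NM_021041, another transcript of the gene, were detected on 0 or 1 of 6 arrays and gave differences of 0.25, -0.26 and 0.22, with levels not well above background. Among the other inward rectifier and sulfonylurea receptor genes, 3 of 8 were tested and 0 passed. Kcnj1, which encodes the renal outer medullary potassium channel of the loop, differed by 0.10 (0.40 on its other probe), Kcnj15 by 0.06 (0.39 on its other probe) and Kcnj16, a basolateral channel subunit of tubule cells, by -0.08. Kcnj11 and Abcc8, the other pore and receptor genes of the ATP-sensitive channel family, were too dim to test.

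Foxd1 was detected on 0 of 6 arrays. Its values of 4.55, 4.48 and 4.69 in captopril samples and 4.69, 4.51 and 4.82 in control samples are levels not well above background. Other transcription factor genes of stromal progenitors and kidney development were measured better. Of 14 listed, 10 were tested and 0 passed, with 8 higher and 2 lower in value and a median of 0.09. Tcf12, a basic helix-loop-helix factor, was the only one of the 10 with an unadjusted p under 0.05, at 6.01, 5.47 and 6.08 in captopril samples and 5.01, 4.84 and 5.34 in control samples. Since Tcf12 was detected on only 1 of 3 control arrays, its difference of 0.79 (SE 0.21) lies near the detection limit, and it was 0.11 in the authors' values. Like Rgs1, Tcf12 met the detection filter through its captopril arrays, where it was high, and its place in the test rests on that. Tcf21, a factor of kidney stroma and podocytes, differed by 0.06, and Meis1, a homeobox factor of stroma, by 0.06 on its brightest probe and -0.12 on the other.

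The beta-adrenergic and cAMP pathway, measured without the unnamed receptor gene Adrb1, showed 0 genes past the threshold and 0 at an unadjusted limma p under 0.05. Of 31 listed genes 27 had a named probe and 18 were tested, with 9 higher and 9 lower in value, and the median was -0.01, as against -0.003 over 9718 tested named genes. Of the other renin cell and macula densa genes, 6 of 18 were tested and 0 passed. Avpr1a, a vasopressin receptor gene, differed by 0.31 (SE 0.16), Slc12a1, the salt cotransporter gene of the loop and macula densa, by -0.22 (SE 0.15) on its brightest probe and by up to 0.26 on others, and Agtr1a, the angiotensin II receptor gene, by -0.08 (SE 0.15). Ptgs2, the cyclooxygenase gene of the macula densa, was too dim to test.

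**Figure D3:**
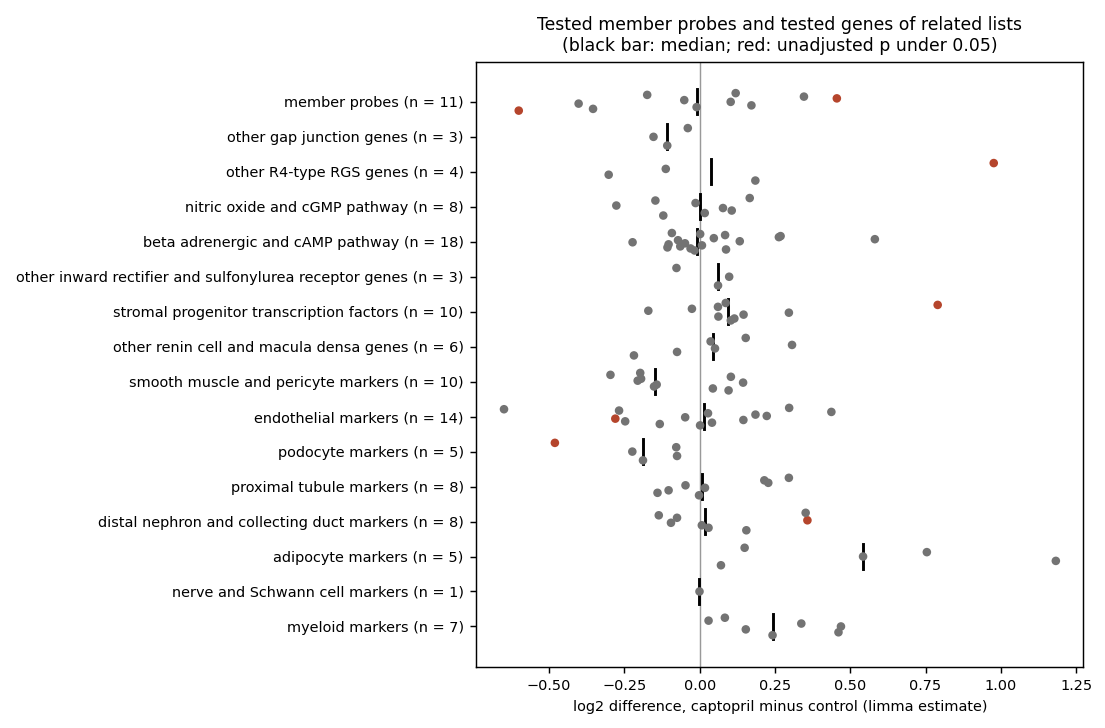
Difference of the 11 tested member probes (top row) and of the tested genes of 15 related lists (x axis: log2 difference, captopril minus control; each point 1 probe or gene; black bars: medians; red points: unadjusted limma p under 0.05). Medians lie between -0.19 for podocyte and 0.54 for adipocyte markers, and 0 genes passed the adjusted threshold.

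Among markers of the cell types of the cortex, 3 of 58 tested genes had an unadjusted limma p under 0.05, or 5.17%, near the 3.69% of all tested named genes, and 0 passed. Eng, an endothelial co-receptor for TGF-beta, was lower in value, at 9.44 ± 0.04 in captopril and 9.72 ± 0.07 in control cortex (SD, n = 3 each), a difference of -0.28 (SE 0.12). Nphs1, which encodes the podocyte protein nephrin, was 6.15, 6.18 and 5.77 in captopril samples against 6.22, 6.80 and 6.52 in control samples, a difference of -0.48 (SE 0.19) that was -0.10 in the authors' values. Pvalb, a calcium-binding protein gene of the distal convoluted tubule, was higher in value, at 10.57 ± 0.20 in captopril and 10.21 ± 0.14 in control cortex (SD, n = 3 each). The whole endothelial list was split, with 8 genes higher and 6 lower and a median of 0.01. Its summed level was 9317 to 12312 in captopril samples and 10766 to 11360 in control samples. Proximal tubule genes had a median of 0.01 and distal nephron and collecting duct genes one of 0.02. The only tested nerve marker, out of 9 listed, differed by -0.002.

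**Figure D4:**
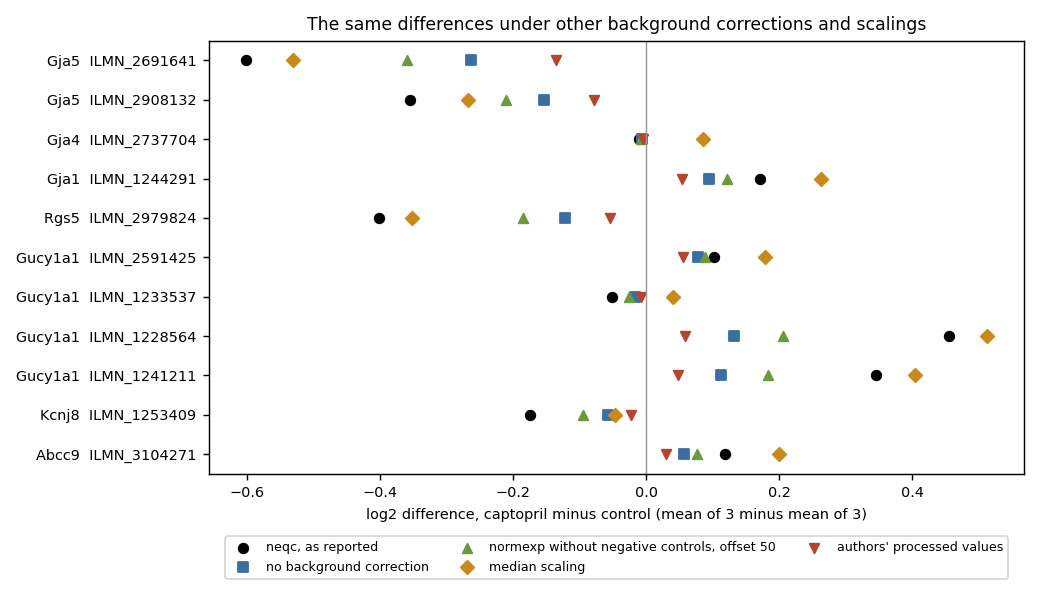
The 11 member differences under 5 ways of handling background and scaling (x axis: log2 difference of group means, captopril minus control; 1 symbol per processing). For Gja5 ILMN_2691641 the difference ran from -0.60 as reported to -0.14 in the authors' values. Its sign could change only with median scaling, since the other settings keep the rank order within arrays and its groups did not overlap. Gja4 and Gucy1a1 ILMN_1233537 lay near 0 and changed sign with median scaling.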

How the data were processed

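Cortex RNA of 3 captopril and 3 control samples was read on 1 array each, and arrays were grouped by title. Per the file headers, the deposited scanner table gives bead-averaged signal intensity and a detection p-value for each probe, the deposited p-values in steps of 1 over 936. Intensity medians ran from 111 to 147, so the table was not normalized between arrays. The authors' deposited processed values are on a log2 scale with a median of 7.94 on every array. Per the submitters' processing notes lumi was used, in a version and with a transform not given in the sources used here. The processed values rank probes exactly as the intensity does, are not centred per gene and run in the same direction, with a slope on log2 intensity of 0.38 to 0.44 under 150 and of 1.01 to 1.08 over 5000.

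Background correction, quantile normalization and log2 used neqc of limma 3.58.1 in R 4.3.3, with an offset of 16. The 16500 probes that 3 or more arrays detected (p under 0.05) entered lmFit and eBayes with group as the only term. Two-sided p-values were adjusted over these probes by Benjamini-Hochberg. The fit was tested on simulated data. With 3 against 3 arrays an exact permutation test cannot give a p below 0.1, so none is used. Their number limits the precision. Symbols came from GEO's platform annotation (34885 probes with 1 symbol and 10396 left unnamed, 18 of them for having several), and all 9 measured members matched a mouse gene table. Every member probe is described. From 15 lists of related genes, those past the threshold were to be named, or else up to 4 with an unadjusted p under 0.05, with other list genes given as examples chosen after their values were seen. A list gene was represented by its brightest tested probe. The members and lists were chosen with earlier results of these data known. The labels name no pairing by replicate number, and none was used in the main fit. Same-numbered deviations correlated at 0.004, 0.01 and 0.04 after quantile normalization, which cannot show that the samples were unpaired. With the replicate number as a block, 4 member probes had an unadjusted limma p under 0.05, against 2 without it. Alternatives changed background, scaling, filter, model options, block and arrays. The smooth muscle and adipocyte covariates were chosen after seeing the data.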

Additional observations from a re-analysis of the deposited data

How the results depend on the processing

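The count of 0 member probes past the limma threshold was 0 under all 17 alternatives, with 0 to 4 member probes at an unadjusted p under 0.05. Over all probes the count of 3 was 5 with trend and robust options, 0 with the replicate number as a block, and 2 whichever single array was left out; under the replicate block 0 member probes passed. With median scaling the sign changed to 0.086 for Gja4 and 0.041 for Gucy1a1 ILMN_1233537, and with the smooth muscle covariate to 0.011 for Gja4. Leaving out 1 sample gave -0.099 to 0.048 for Gja4 (above 0 without control sample 2 or 3 or captopril sample 2), -0.15 to 0.073 for Gucy1a1 ILMN_1233537 (above 0 without control sample 3 or captopril sample 3), -0.49 to 0.24 for Kcnj8 (above 0 without control or captopril sample 2) and -0.0076 to 0.33 for Abcc9 ILMN_3104271 (below 0 without captopril sample 2). The cause of these changes was not tested. With detection under 0.01 required on all 6 arrays, the probes of Rgs5 and Kcnj8 and the 2 dimmest of Gucy1a1 were not fitted. All 11 tested member differences were smaller in size without background correction.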

Other observations

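Some member probes followed each other over the 6 arrays, seen among 55 pairs of tested probes and described here without a test. Gja1 and Kcnj8 had a Pearson r of 0.82 over the 6 arrays, with both high in captopril sample 1 and control sample 2 and both low in captopril sample 2 and control sample 3. Kcnj8 and Abcc9, the channel's pore and receptor, ran opposite ways at -0.79, and captopril sample 2 had the lowest Kcnj8 value, 4.63, and the highest Abcc9 value, 6.67. The probes share each sample's RNA and array, and r ran from -0.91 to 0.82 over all pairs, with -0.91 between Gja5 ILMN_2691641 and Gucy1a1 ILMN_1228564.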
